A study of Mus musculus with 3 samples.

Results

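The plasminogen activation system and tissue factor were followed in RAW 264.7 cells, a mouse macrophage line, through 9 genes, namely *Plau*, *Plaur*, *Plat*, *Serpinb2*, *Serpinb9*, *F3*, *F10*, *Thbs1* and *Procr*. The genes were chosen by name, and all 9 had probes on the array, with 12 probes in all, out of 26840 genes with a symbol. All macrophages had received LPS, a TLR4 agonist, at 50 ng/mL. The 3 groups were LPS alone, CRL1505 + LPS, in which *L. rhamnosus* CRL1505 was added for 24 h before the LPS, and CRL1506 + LPS, in which *L. plantarum* CRL1506 was added in its place, with each lactobacillus at 50000000 cells/mL and washed away before the LPS. The design text gives 12 h of LPS and the sample descriptions give 3 h. Cells without LPS were not analysed here, and each ratio sets a strain followed by LPS against LPS alone, or strain against strain. There was 1 array per group, so no test could be made and no p-value is given.

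Plasminogen circulates as an inactive precursor and is cut to plasmin, a protease that dissolves fibrin and degrades matrix, by urokinase (*Plau*) or by the tissue-type activator (*Plat*). Macrophages hold urokinase on the surface receptor *Plaur*, and serpins restrain the activators. Tissue factor (*F3*) is the cell-surface trigger of coagulation, and monocytes and macrophages are known to make it in response to LPS.

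The RNA was labelled in 1 colour (Cy3) and hybridised to SurePrint G3 Mouse GE arrays, on which the brightness of a probe of 60 bases follows the abundance of its transcript. Levels are given as log2 intensity relative to the 75th percentile of gene spots on the same array, so 0 is that percentile, and levels of different probes are not compared with each other. That percentile was at 743.1 intensity units with LPS, 517.0 with CRL1505 + LPS and 697.9 with CRL1506 + LPS. Between 48.5% and 55.3% of the gene spots were well above background. The CRL1505 + LPS array was the dimmest and was alone on its slide and in its run of scanning, while the LPS and CRL1506 + LPS arrays shared both, so the CRL1505 strain and its slide cannot be told apart. With no replicates, ratios were read against the spread among probes of the same gene, whose median SD was 0.23 on the log2 scale for CRL1505 + LPS against LPS, 0.22 for CRL1506 + LPS against LPS and 0.32 for strain against strain. This SD holds probe differences and no variation between cultures. All 11 macrophage markers checked, among them *Cd68*, *Csf1r*, *Itgam* and *Spi1*, were well above background on all arrays. With CRL1505, *Adgre1* (4.83-fold) and *Fcgr1* (5.28-fold) of these markers were higher than with LPS and *Csf1r* was 2.77-fold lower, and with CRL1506 *Adgre1* was just past 2-fold higher. The part of such changes in the ratios given here was not tested.

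To show the regulatory DNA of these genes, the 250 bases before the start site of *Plaur*, *Serpinb2*, *Serpinb9*, *F3* and *Procr* are printed 5′ to 3′ on the + strand, from RefSeq on GRCm38.p6. The RefSeq table held promoters of 6 of the 9 genes, these and *F10*. The capitals mark matches to AP-1 (TGANTCA, any base in the middle), the core of the cAMP response element (TGACG) and Sp1 (GGGCGG), sought on both strands.
Plaur, chr7:24462233-24462482: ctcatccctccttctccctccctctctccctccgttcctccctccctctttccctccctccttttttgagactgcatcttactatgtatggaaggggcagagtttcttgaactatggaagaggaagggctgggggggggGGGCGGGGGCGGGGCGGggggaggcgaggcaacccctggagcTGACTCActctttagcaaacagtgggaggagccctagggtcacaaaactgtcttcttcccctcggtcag
Serpinb2, chr1:107511173-107511422: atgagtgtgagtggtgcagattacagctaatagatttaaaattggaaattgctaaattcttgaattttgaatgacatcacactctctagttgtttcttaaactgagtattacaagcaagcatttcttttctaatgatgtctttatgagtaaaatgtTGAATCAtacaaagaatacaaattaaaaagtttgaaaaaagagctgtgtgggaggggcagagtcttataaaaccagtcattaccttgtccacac
Serpinb9, chr13:33004291-33004540: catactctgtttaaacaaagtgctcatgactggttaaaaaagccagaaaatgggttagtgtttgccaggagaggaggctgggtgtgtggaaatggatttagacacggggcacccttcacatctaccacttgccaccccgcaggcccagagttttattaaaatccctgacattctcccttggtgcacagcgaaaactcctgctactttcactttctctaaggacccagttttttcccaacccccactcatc
F3, chr3:121723287-121723536: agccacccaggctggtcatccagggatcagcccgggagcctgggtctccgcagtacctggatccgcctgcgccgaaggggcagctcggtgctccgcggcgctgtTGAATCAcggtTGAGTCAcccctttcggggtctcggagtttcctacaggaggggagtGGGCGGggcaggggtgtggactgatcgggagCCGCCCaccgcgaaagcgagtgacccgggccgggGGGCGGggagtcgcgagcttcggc
Procr, chr2:155750967-155751216: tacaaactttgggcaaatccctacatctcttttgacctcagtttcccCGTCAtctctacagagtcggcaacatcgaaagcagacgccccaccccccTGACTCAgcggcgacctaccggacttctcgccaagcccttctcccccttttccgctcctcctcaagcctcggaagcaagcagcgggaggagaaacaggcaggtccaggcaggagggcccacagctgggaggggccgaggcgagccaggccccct

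An AP-1 match was found in 4 of the 6 promoters. It lay 63 to 69 bases before the start of *Plaur*, 88 to 94 before the first of the 2 listed starts of *Serpinb2*, and 148 to 154 before the start of *Procr*, while *F3* had a pair of matches, at 129 to 135 and 140 to 146 bases. Over all 32851 promoter windows of the table, 6.75% held such a match. Sp1 letters occurred 3 times each in *Plaur* and *F3* (32.7% of all windows held one), and the cAMP response element core occurred once, in *Procr* (17.8% of all windows). The NF-kappaB motif, sought by name, was matched in none of the 6 and in 3.90% of all windows. *Serpinb9* and *F10* held none of these motifs in the window. A match describes the letters and shows no binding. A missing match does not show that a site is absent, since sites that depart from the letters sought are missed.

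With CRL1505 followed by LPS, *Plau* was lower than with LPS alone, and *Serpinb9*, *Procr* and *Serpinb2* were higher. *Thbs1* was higher by 1 uneven spot alone, and its other probe was on no array well above background. With CRL1506 followed by LPS, *Serpinb2* was higher at the 2-fold threshold and the other genes that could be compared were under it. Of the 9 genes, 5 were well above background on all arrays (*Plau*, *Plaur*, *Serpinb2*, *Serpinb9* and *Procr*), *F3* and *Thbs1* were so on the CRL1505 + LPS array alone, and *Plat* and *F10* on none. In CRL1505 + LPS against LPS, 4 of the 7 compared genes were at least 2-fold higher, beside 9.93% of 15603 genes compared, and 1 of the 7 was at least 2-fold lower, beside 8.41%. In CRL1506 + LPS against LPS, 1 of the 5 compared genes was at least 2-fold higher (5.67% of 16279 genes) and 0 were lower (3.53%). The median log2 ratio was 1.34 over the 7 genes with CRL1505, beside 0.01 over all genes, and 0.55 over the 5 genes with CRL1506, beside -0.06. Both comparisons use the same LPS array. As the genes were chosen with earlier results known, the counts are a description.

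**Figure D1:**
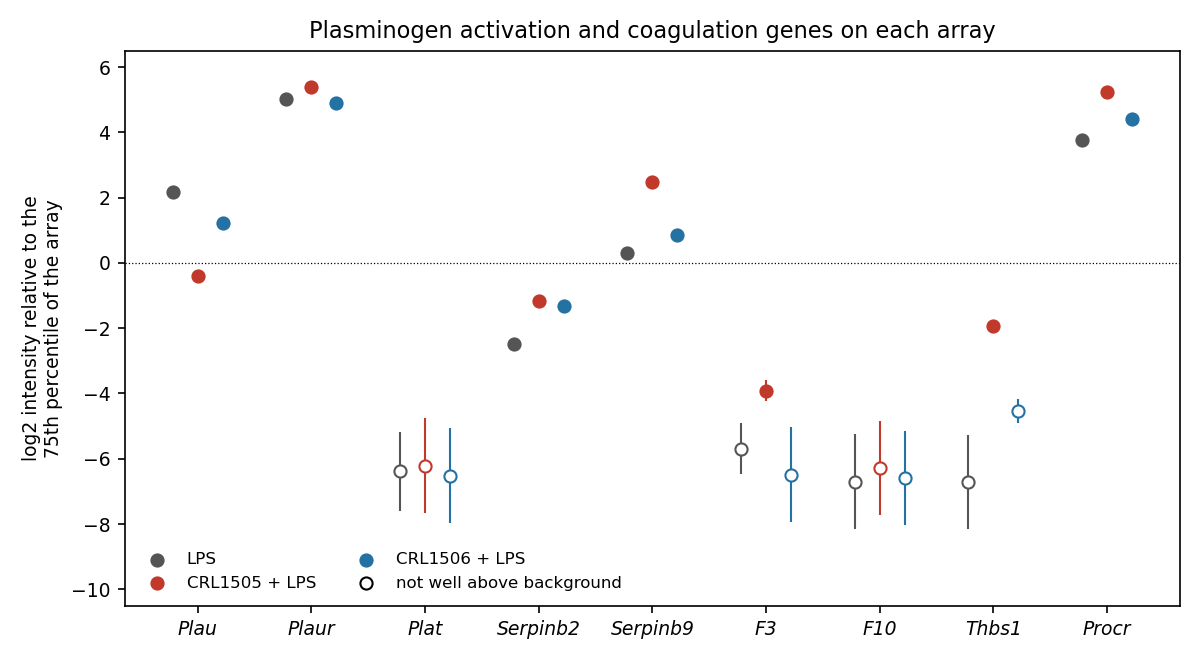
Log2 intensity of the 9 genes (x axis) on each of the 3 arrays, relative to the 75th percentile of the array (y axis), with bars for the signal error given by the scanner software and open circles for spots not well above background. *Plau* was lowest and *Serpinb9* and *Procr* highest on the CRL1505 + LPS array, and *Plat* and *F10* have open circles throughout.

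*Plau*, which encodes urokinase, the main plasminogen activator of macrophages, had a level of 2.16 with LPS, -0.39 with CRL1505 + LPS and 1.21 with CRL1506 + LPS, from intensities of 3331, 396 and 1618. The level was highest with LPS alone, intermediate with CRL1506 and lowest with CRL1505, and each step was larger than the SD between probes. The log2 ratio to LPS was -2.55 for CRL1505, a 5.86-fold lower level, and -0.95 for CRL1506, a 1.93-fold lower level just under the threshold. Strain against strain, *Plau* was 3.03-fold lower with CRL1505, at a log2 ratio of -1.60. Over 7 other normalizations, 1 of them the deposited table, the CRL1505 ratio ran from -3.06 to -2.25 and was past 2-fold in each, while the CRL1506 ratio ran from -1.15 to -0.86 and was past 2-fold in 2. Only 0.596% of the genes compared had a lower ratio with CRL1505, and 3.88% with CRL1506.

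This probe of *Plau* lies at chr14:21662487-21662546 (mm9). A second, dimmer probe of the gene is shown because it checks the direction at another place in the transcript, and its 60 bases span 367 bases of the genome (chr14:21659855-21660221, mm9), so it crosses a splice junction.
Plau, junction probe: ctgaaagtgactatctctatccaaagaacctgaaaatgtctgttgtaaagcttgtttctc

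The junction probe of *Plau* had levels of -2.48 with LPS and -3.09 with CRL1506 + LPS, and its level of -4.82 with CRL1505 + LPS was not well above background. Its order over the arrays was that of the brighter probe. With CRL1505 the log2 ratio to LPS was bounded at -1.64 or lower, where the bound sets the dim side at the lowest signal well above background on that array. The ratio of this probe was -0.61 for CRL1506.

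*Plat*, the tissue-type activator, was on no array well above background with either of its 2 probes, whose intensities lay between 6.96 and 8.93. No ratio is given for it. *Plaur*, the urokinase receptor, was bright throughout, with levels of 5.04 with LPS, 5.40 with CRL1505 + LPS and 4.91 with CRL1506 + LPS (intensities 24369, 21886 and 20938). The arrays differed by less than 2-fold in it. Its ratio was 0.37 for CRL1505, which ran from -0.14 to 0.66 over the normalizations and so changed sign with spike-in scaling, and -0.13 for CRL1506, smaller than the SD between probes. Relative to the median of all genes under each normalization, the CRL1505 ratio stayed between 0.13 and 0.31. Strain against strain, *Plaur* was 1.41-fold higher with CRL1505, at a log2 ratio of 0.50 (0.10 to 0.99 over the normalizations). The CRL1505 ratio and the ratio between strains were larger than the SD between probes. The probe lies at chr7:25260569-25260628 (mm9).

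*Serpinb2* encodes plasminogen activator inhibitor 2, an inhibitor of urokinase made by macrophages. Its levels were -2.50 with LPS, -1.15 with CRL1505 + LPS and -1.31 with CRL1506 + LPS (intensities 132, 233 and 282). It was low with LPS alone and higher by like amounts with each strain. The log2 ratio was 1.34 for CRL1505, 2.54-fold higher, and 1.19 for CRL1506, 2.28-fold higher. The strains differed by 0.16, smaller than the SD between probes, and this difference ran from -0.24 to 0.65 over the normalizations. Both ratios to LPS were near the threshold, since 4 of the 7 normalizations kept each past 2-fold, with ranges of 0.84 to 1.64 and 0.70 to 1.28. The gene had a single probe, at chr1:109421496-109421555 (mm9).

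*Serpinb9* belongs to the same clade B of serpins and is known as the intracellular inhibitor of granzyme B, not as an inhibitor of plasminogen activators. Its levels were 0.29 with LPS, 2.48 with CRL1505 + LPS and 0.84 with CRL1506 + LPS (intensities 912, 2883 and 1251). The CRL1505 + LPS array stood above both others. The ratio was 2.18 for CRL1505, 4.55-fold higher, and 0.55 for CRL1506, 1.46-fold higher. Strain against strain it was 1.64, 3.11-fold higher with CRL1505. The CRL1505 ratio and the ratio between strains were past 2-fold in all 7 normalizations (1.68 to 2.48 and 1.24 to 2.13), while the CRL1506 ratio was past it in 0 (0.35 to 0.63). The probe lies at chr13:33108685-33108744 (mm9).

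**Figure D2:**
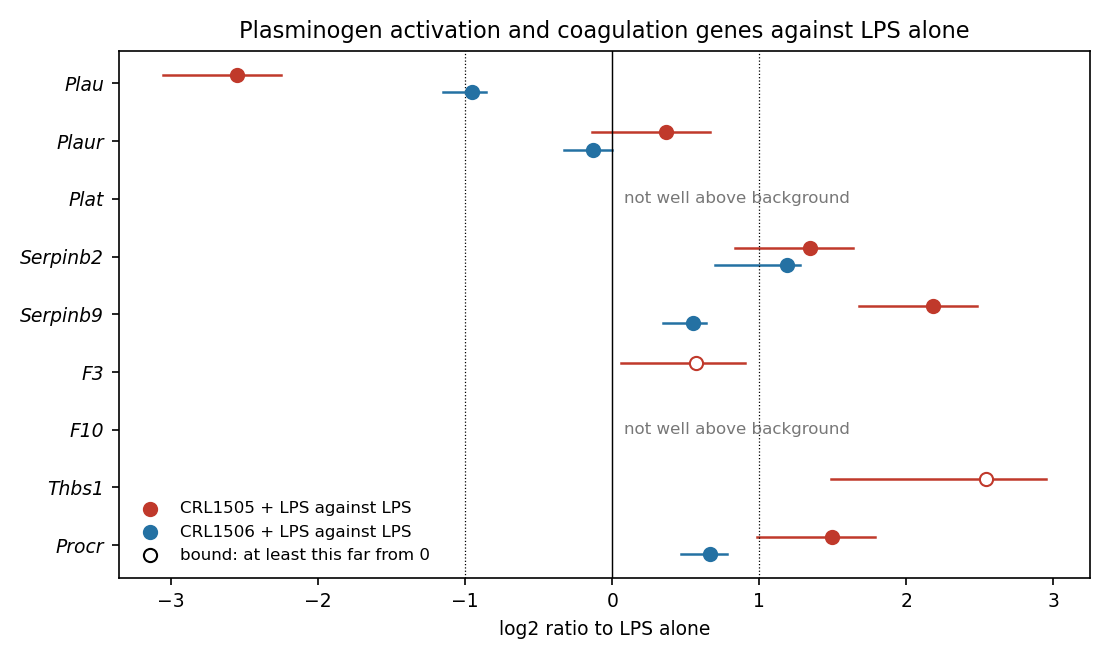
Log2 ratio to LPS alone (x axis) for each gene (y axis) and strain, with lines for the range over 7 other normalizations, open circles for bounds and dotted lines at 2-fold. The CRL1505 ratio of *Plau* at -2.55 lay farthest to the left, that of *Serpinb9* at 2.18 lay far to the right, and the ranges of *Serpinb2* crossed the 2-fold line for both strains.

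Among the coagulation genes, *F3*, which encodes tissue factor, was dim. Its intensity was 14.4 with LPS, 34.4 with CRL1505 + LPS and 7.80 with CRL1506 + LPS, and the CRL1505 + LPS spot alone was well above background. With CRL1505 the level of -3.91 was, as a bound, at least 1.48-fold higher than with LPS (log2 0.57) and at least 1.40-fold higher than with CRL1506 (log2 0.49). That level was near the lowest signal well above background on its array, -4.12. The software error of the spot was 0.32 on the log2 scale, which the bounds do not take into account. The bound against LPS ran from 0.06 to 0.90 over the normalizations and reached 2-fold in 0 of them. *F10*, the precursor of the protease that tissue factor activates together with factor VII, was on no array well above background, with intensities from 6.67 to 7.29. The probe of *F3* lies at chr3:121437717-121437776 and that of *F10* at chr8:13055774-13055833 (mm9).

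*Procr* encodes the endothelial protein C receptor, which presents protein C for activation and is also found on myeloid cells. Its levels were 3.75 with LPS, 5.25 with CRL1505 + LPS and 4.42 with CRL1506 + LPS (intensities 10022, 19624 and 14931). The gene was bright on all arrays, with CRL1505 at the top, CRL1506 between and LPS alone at the bottom, and each step exceeded the SD between probes. The ratio was 1.49 for CRL1505, 2.81-fold higher, and 0.67 for CRL1506, 1.59-fold higher. The CRL1505 ratio ran from 0.99 to 1.79 and was past 2-fold in 6 of 7 normalizations. Strain against strain, the ratio of 0.83 (1.77-fold) ran from 0.43 to 1.32 and was past 2-fold in 1. The probe lies at chr2:155580945-155581004 (mm9).

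*Thbs1* encodes thrombospondin 1, a secreted matrix protein that binds CD47 and CD36 and can activate latent TGF-beta. Its brighter probe (chr2:117952585-117952644, mm9) had intensities of 7.09 with LPS, 135 with CRL1505 + LPS and 30.0 with CRL1506 + LPS, and was well above background with CRL1505 + LPS alone. Taken as it stands, *Thbs1* was at least 5.82-fold higher with CRL1505 + LPS than with LPS (log2 2.54) and at least 5.51-fold higher than with CRL1506 + LPS (log2 2.46). Over the normalizations the bound ran from 1.48 to 2.95 against LPS and from 1.19 to 3.06 against CRL1506 + LPS. These bounds rest on 1 uneven spot, whose mean pixel signal exceeded the median pixel signal by 0.32 on the log2 scale, and no value is left when uneven spots are left out. The second probe (chr2:117950962-117951021, mm9) was on no array well above background, with intensities of 6.63, 5.87 and 21.4, so the higher level of *Thbs1* was seen with 1 of its 2 probes. With the mean over both probes the bounds were weaker, at log2 0.28 or higher against LPS and 0.20 or higher against CRL1506 + LPS. Such bounds do not reach 2-fold and do not show a difference under 2-fold.

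Set strain against strain, 2 of the 7 compared genes, *Serpinb9* and *Thbs1*, were at least 2-fold higher with CRL1505, beside 9.02% of 15780 genes, and 1, *Plau*, was at least 2-fold lower, beside 7.47%. The median ratio of the 7 was 0.50, beside 0.03 over all genes. *F3* and *Thbs1* entered the 7 only through their signal with CRL1505, so they could only come out higher with it. Without *Thbs1*, whose spot was uneven, 1 gene was at least 2-fold higher.

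**Figure D3:**
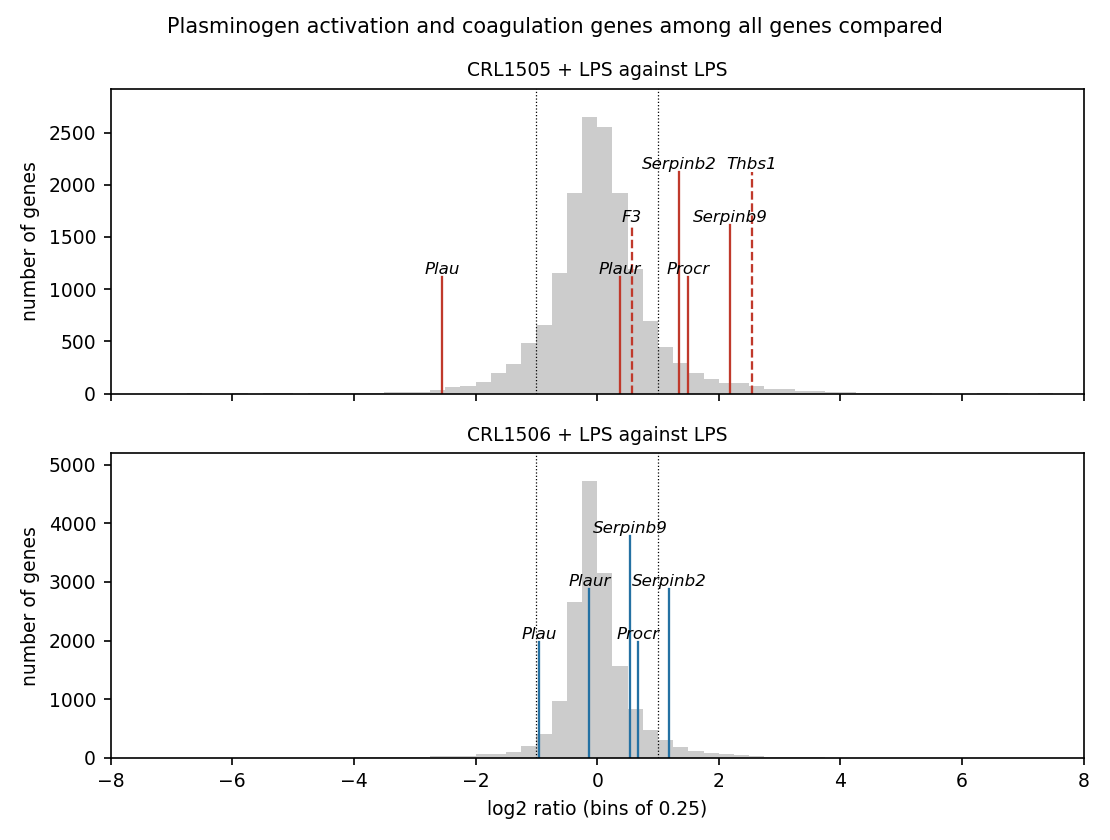
Number of genes (y axis) by log2 ratio to LPS alone (x axis, bins of 0.25) for CRL1505 + LPS above and CRL1506 + LPS below, with lines at the named genes (dashed for bounds, their height without meaning) and dotted lines at 2-fold. *Plau* at -2.55 lay in the lower tail with CRL1505, and *Serpinb2* at 1.19 was past the upper 2-fold line with CRL1506.

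Several of these genes are also made by vessel cells or platelets, so markers of other cell types were checked. Of 5 endothelial markers, 2 were well above background with LPS and 4 with each strain, and their summed intensity was 0.370, 0.611 and 0.670 times the 75th percentile of the array with LPS, CRL1505 + LPS and CRL1506 + LPS. *Kdr* was not well above background with LPS or CRL1505 + LPS, and *Tek* with LPS or CRL1506 + LPS. With CRL1505, 2 of the 4 endothelial markers compared were at least 2-fold higher than with LPS, beside 9.93% of all genes. These were *Tek*, at least 4.26-fold, and *Cdh5*, at least 2.98-fold. With CRL1506, 1 of 4 was higher, *Vwf* at 2.11-fold, beside 5.67% of all genes. With each strain, 0 were 2-fold lower. Of 5 fibroblast markers, 0, 1 and 3 were well above background, with sums of 0.134, 0.299 and 0.436. Of 5 platelet and megakaryocyte markers, *Pf4*, which macrophages also express, was well above background on all arrays and *Ppbp* with LPS alone, while *Gp1ba*, *Itga2b* and *Gp9* were so on none, and the sums were 297, 180 and 185. The part of these markers in the ratios of *Procr* and *Thbs1* was not tested. In RNA from a whole culture, fewer cells that make a transcript and less of it per cell cannot be told apart.

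Further genes of plasminogen activation were taken as a list of 18, all with a probe, of which 11 were well above background on some array. With CRL1505, 1 of the 9 compared was at least 2-fold higher (*Klkb1*) and 1 lower (*Lrp1*), beside 9.93% and 8.41% of all genes. The median log2 ratio was 0.20. With CRL1506, 0 of 9 were higher and 0 lower, beside 5.67% and 3.53% of all genes, at a median of -0.21. *Plg*, plasminogen itself, was on no array well above background. *Serpine2*, an inhibitor of thrombin and urokinase, had ratios of 0.20 for CRL1505 and -0.21 for CRL1506.

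*Klkb1*, plasma prekallikrein, had low levels of -4.26, -2.07 and -3.69 with LPS, CRL1505 + LPS and CRL1506 + LPS. It was highest with CRL1505, at a ratio of 2.20 (1.21 to 2.59 over the normalizations), against 0.57 for CRL1506. Its second probe was well above background on none of the arrays, and the mean over both gave 0.90 and -0.51, under 2-fold. *Lrp1*, the endocytic receptor that clears complexes of urokinase with its inhibitors, had levels of 2.96, 1.66 and 2.27, so it was lowest with CRL1505. Its ratio was -1.30 for CRL1505 and -0.69 for CRL1506 with the brightest probe, but -0.41 and -0.73 for CRL1505 and -0.46 and 0.28 for CRL1506 with the other probes. *Anxa2* and *S100a10*, which form a plasminogen receptor on the cell surface, had ratios of 0.35 and -0.03 for CRL1505 and -0.56 and -0.37 for CRL1506 with their brightest probes, all under 2-fold. For CRL1506 another probe of *Anxa2*, well above background on all arrays, gave -0.73. The dimmest probe gave a bound of 1.72, from an uneven spot, and was well above background with CRL1506 + LPS alone. The mean over probes, which includes it, gave 0.91.

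**Figure D4:**
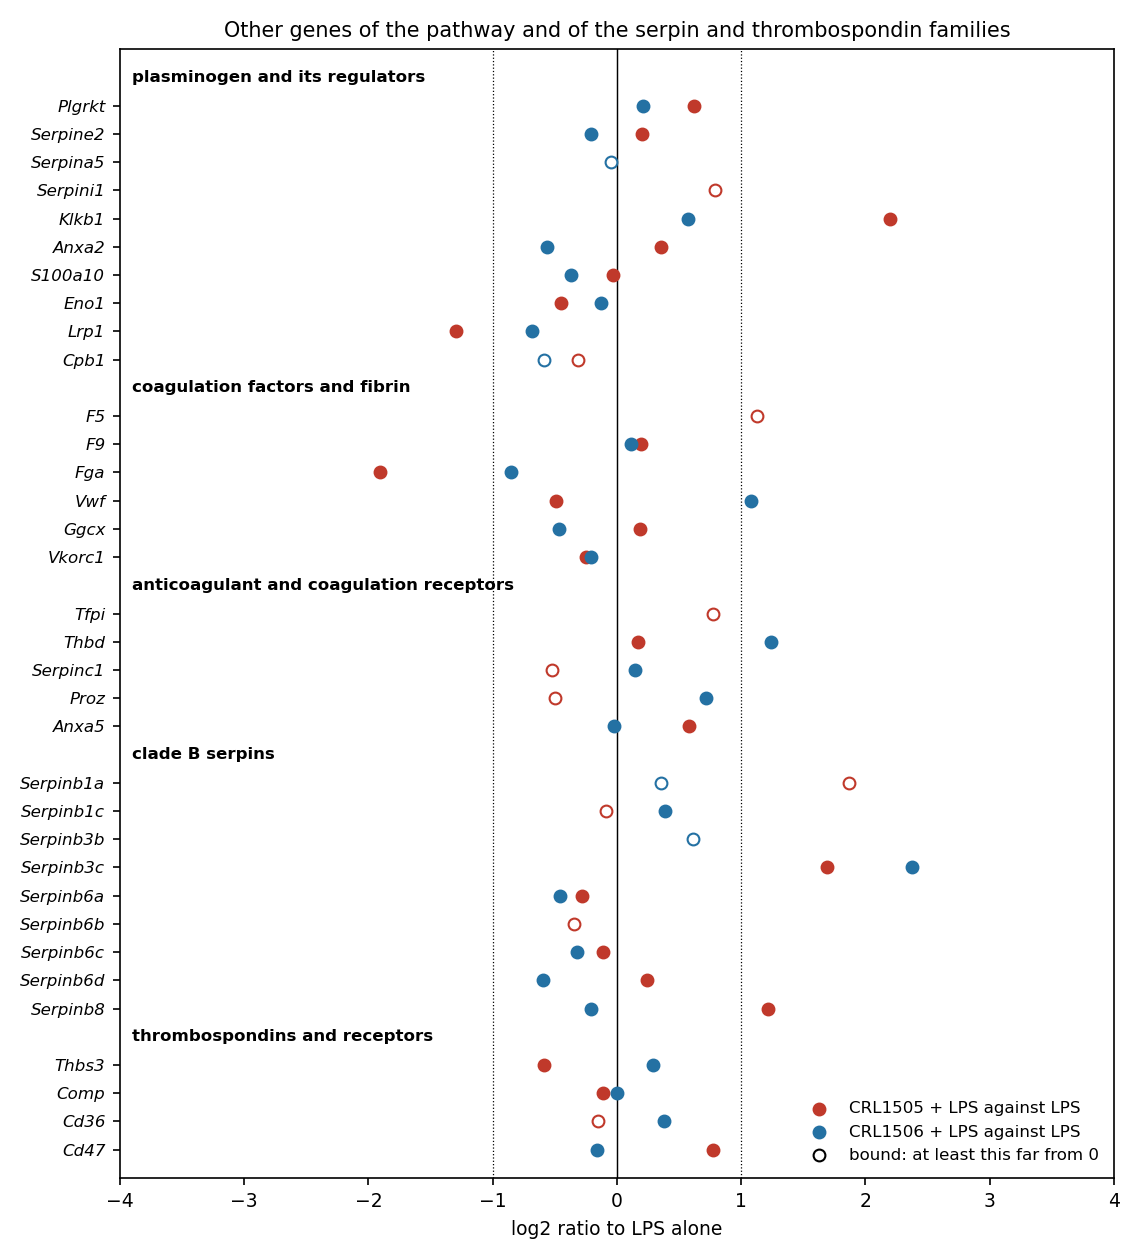
Log2 ratio to LPS alone (x axis) for further genes of plasminogen activation, coagulation, anticoagulation, clade B serpins and thrombospondins (y axis), with 1 circle per strain, open for bounds, and dotted lines at 2-fold. *Klkb1* lay at 2.20 and *Fga* at -1.91 for CRL1505, and most other genes lay within 2-fold for both strains.

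Of 15 further coagulation and fibrin genes, 6 were well above background on some array. With CRL1505, 1 of 6 compared was higher (*F5*) and 1 lower (*Fga*), beside 9.93% and 8.41% of all genes. With CRL1506, 1 of 5 was higher (*Vwf*) and 0 lower, beside 5.67% and 3.53%. The medians were -0.03 and -0.21. *F5*, factor V, was at least 2.19-fold higher with CRL1505, and this bound ran from log2 0.61 to 1.43, past 2-fold in 4 of 7 normalizations. *Fga*, the alpha chain of fibrinogen, had levels of -2.05, -3.95 and -2.90 with LPS, CRL1505 + LPS and CRL1506 + LPS. Its ratio of -1.91 for CRL1505 ran from -2.41 to -0.94 over the normalizations. Its second probe was on no array well above background, and the mean over both gave -0.76, under 2-fold. *Vwf*, which tethers platelets, had levels of -2.41, -2.90 and -1.33, and its ratio of 1.08 for CRL1506 was past 2-fold in 1 of 7 normalizations. *F7*, the partner of tissue factor, was on no array well above background.

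Of 13 anticoagulant genes and coagulation receptors, 6 were well above background on some array. With CRL1505, 0 of 5 compared were past 2-fold, while 9.93% of all genes were higher and 8.41% lower. With CRL1506, 1 of 4 was higher, beside 5.67% of all genes. The medians were 0.17 and 0.43. The gene higher with CRL1506 was *Thbd*, thrombomodulin, which turns thrombin towards protein C. Its levels were -3.74, -3.57 and -2.50 with LPS, CRL1505 + LPS and CRL1506 + LPS. It was higher with CRL1506, at a ratio of 1.24 (0.58 to 1.33 over the normalizations) against 0.17 for CRL1505. *Tfpi*, the inhibitor of the tissue factor pathway, was well above background with CRL1505 + LPS alone and at least 1.71-fold higher than with LPS. This bound ran from 0.27 to 1.08 on the log2 scale over the normalizations. It rests on 1 probe, as the other probes of *Tfpi* were on no array well above background. The thrombin receptor *F2r* and the related receptor *F2rl1* were on no array well above background.

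Of 24 other clade B serpins, 9 were well above background on some array. With CRL1505, 3 of 8 compared were higher and 0 lower, beside 9.93% and 8.41% of all genes. With CRL1506, 1 of 8 was higher and 0 lower, beside 5.67% and 3.53%. The medians were 0.08 and 0.07. *Serpinb1a*, an inhibitor of neutrophil proteases, was at least 3.66-fold higher with CRL1505 + LPS than with LPS. *Serpinb3c* had low levels of -4.21, -2.52 and -1.83 with LPS, CRL1505 + LPS and CRL1506 + LPS and was higher with both strains, at ratios of 1.69 and 2.38. Over the normalizations these ran from 0.88 to 1.99, past 2-fold in 5 of 7, and from 1.19 to 2.47, past it in all 7. Its level with LPS was near the lowest signal well above background on that array, -4.48. *Serpinb8*, an inhibitor of furin, had a ratio of 1.22 for CRL1505 with its brighter probe and -1.68 with the other, so its direction depends on the probe. Of 6 genes of other thrombospondins and thrombospondin receptors, 4 were compared with each strain and 0 were past 2-fold, at medians of -0.13 and 0.14. Of all genes, 9.93% were higher and 8.41% lower with CRL1505, and 5.67% and 3.53% with CRL1506. The receptor *Cd47* had ratios of 0.77 and -0.16.

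Genes whose pair of ratios to LPS was most like that of a named gene were sought among 13123 genes well above background on all arrays, by the straight-line distance over the 2 ratios. Nearest to *Plau* were *Lyzl4* at 0.05, *Mef2c* at 0.07 and *Hist1h3i* at 0.14. Nearest to *Serpinb9* were *Klkb1* at 0.03, *Samhd1* at 0.08 and *Calcrl* at 0.09, and nearest to *Procr* were *Gm7788* at 0.04, *Ktn1* at 0.05 and *Arhgap25* at 0.06. Within the SD between probes there were 9 genes around *Plau*, 24 around *Serpinb9* and 52 around *Procr*. Both ratios use the same LPS array, so likeness over them is a description.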

How the data were processed

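RNA of RAW macrophages was measured on 3 one-colour Agilent arrays, 1 per group. The authors deposited the Feature Extraction output of each array (version 12.0.3.1 in the file headers), whose processed signal is an intensity with background subtracted and not normalized between arrays. A further table deposited by the authors holds log2 values normalized between arrays, with scale and centring not stated, which was used as an alternative.

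The processed signal was taken to log2 and shifted so that the 75th percentile over gene spots was 0 on each array. Outlier spots were left out (241 to 467 per array), repeated spots were averaged, and a gene was represented by its brightest probe, with a probe holding an outlier spot used only where no other existed. No gene spot was saturated. A gene well above background on 1 of the compared arrays was given as a bound. Its dim side was set at the higher of its own signal and the lowest signal well above background on that array. A bound that came out higher on the dim side was dropped, so every bound given points to the array with signal. A gene dropped in this way, or well above background on neither array, was not compared. The threshold was 2-fold. The methods' test needs replicates and was not run. The number of arrays limited the precision, and the median SD over repeated spots was 0.04 to 0.05 on the log2 scale, within 1 hybridisation.

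Ranges are over 7 normalizations other than the main one: the 75th percentile over the probes that every array detected, the median, quantile, cyclic loess, spike-in scaling over 8 probes, normexp (offset 50) with quantile, and the deposited table. Further alternatives were no filter on dim probes, a filter for signal above background on every array, the mean over probes, outlier spots kept, uneven spots left out (mean over median pixel signal above 0.2 on the log2 scale), and thresholds of 1.5-fold and 4-fold. Named were all 9 members, at most 4 genes per list past 2-fold, 10 further genes regardless of value (1 more is not reported here), and 3 nearest genes each for the 3 members with the largest ratios among those well above background on all arrays. The members, lists and alternatives were chosen with earlier results of these data known. Python 3.11.15, pandas 2.3.3, NumPy 2.4.6, R 4.3.3 and limma 3.58.1 were used, and the procedure was tested on simulated data. Probe positions are those of the files (mm9).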

Additional observations from a re-analysis of the deposited data

How the results depend on the processing

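Alternatives moved counts near the 2-fold threshold. In CRL1505 + LPS against LPS, the 4 higher genes became 2 with spike-in scaling and at 4-fold, 3 with normexp, the deposited table, the filter on all arrays, the mean over probes and uneven spots left out, and 5 without the filter on dim probes. *Thbs1* was the gene lost with the filter on all arrays, the mean over probes and uneven spots left out. In CRL1506 + LPS against LPS, the 1 higher gene became 0 with the median shift, normexp, the deposited table and at 4-fold, and 2 without the filter on dim probes and at 1.5-fold, while the 0 lower genes became 1 with the median shift, spike-in scaling and at 1.5-fold. Between strains, the 2 higher genes became 1 with the filter on all arrays, the mean over probes, uneven spots left out and at 4-fold. They became 3 with the median shift, quantile normalization, no filter on dim probes and at 1.5-fold. The 1 lower gene became 0 at 4-fold. The mean over probes turned *Serpinb8* with CRL1505 from 1.22 to -0.23, as its probes oppose each other, and *Anxa2* with CRL1506 from -0.56 to 0.91. Scaling moved all genes together: the median log2 ratio of all genes was 0.35 for CRL1505 and -0.26 for CRL1506 with the median shift, and -0.45 and -0.17 with spike-in scaling, against 0.06 and -0.06. Relative to these medians, the CRL1505 ratios ran from -2.66 to -2.38 for *Plau*, from 1.89 to 2.13 for *Serpinb9*, from 1.21 to 1.44 for *Procr* and from 0.89 to 1.41 for *Serpinb2*. *F3* and *Thbs1* had no value with the filter on all arrays, nor *Thbs1* without uneven spots. No paired analysis was possible because each group had 1 array, and for the same reason no replicate could be left out and no slide could be taken as a block. Dim spots limit *Plat*, *F10* and *F3*, for which a difference was not detectable or only a bound could be given.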
